A study of Mus musculus with 15 samples.

Results

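LIM domain genes that the heart uses under mechanical load were described in cultured mouse cardiac myocytes, 15 libraries in all. A LIM domain is a zinc-binding fold that holds proteins together, and the muscle LIM proteins sit where load is carried: on titin, on alpha-actinin at the Z-disc, and at cell adhesions. Several of them also enter the nucleus and act there as transcriptional cofactors. In mouse hearts the family is known for genes whose loss or excess changes hypertrophy and dilation.

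The 9 genes were given as a list of symbols (Fhl1, Fhl2, Lmcd1, Csrp1, Csrp2, Csrp3, Pdlim3, Pdlim5 and Pdlim7), and 8 of them were found among the 13657 genes of the deposited table. Pdlim5 was not analysed here. The list was chosen by measured values, with earlier results of these same libraries in view, so each call on a member below is a description and no independent evidence. All 8 members passed the filter on low values, and none was listed at 0 in any library.

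All cells were C57BL/6 neonatal cardiac myocytes attached to elastic silicone membranes, without any genetic change or drug named in the labels. Static biaxial stretch was held with the larger axis (14%) along the cells (longitudinal) for 4 h or 30 min, or across them (transverse) for 4 h or 30 min, and the other axis was stretched by 3.6%. Control cells were not stretched. Each of the 5 groups had 3 devices, named A, B and C, which the labels call biological replicates. The labels do not say whether the cells of the devices came from separate isolations. The p-values therefore set differences between groups against the spread between devices, pooled over all 5 groups. The series title concerns dependence on the axis of stretch, which is why the axes were compared as well as each stretch with control.

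Levels are FPKM, the deposited measure of abundance scaled by transcript length and library size. Log2 fold changes and their standard errors (SE) are on the log2(FPKM + 1) scale, and adjusted p-values are from limma with Benjamini-Hochberg adjustment over the 12114 genes that passed the filter. Calls required an adjusted p under 0.05. Absolute depth is unknown because the table holds no counts. Relative depth, estimated from the steps of the lowest values, lay between 0.671 and 1, and pairs of libraries correlated at 0.943 to 0.988.

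In these genes 3 of the 15 libraries stood apart: device C of longitudinal 4 h, device C of longitudinal 30 min and device B of transverse 30 min. They were the highest of their group for 6, 6 and 7 of the 8 members, and each was the lowest of its group for Fhl2. By the estimate of relative depth they were also the 3 shallowest libraries, at 0.777, 0.829 and 0.671, against 0.850 to 1 in the other 12. These 3 estimates rest on 25, 39 and 26 genes, and no error was computed for them. Whether depth takes part in the values of these libraries was not tested. Results are given with all libraries and, as a choice made after seeing the data, without these 3. They were picked by levels of the members themselves, Csrp3 among them, so the values without them are no independent check. They are not the 3 highest libraries in Csrp3. Longitudinal 4 h A, which was kept, had 2515 FPKM and longitudinal 30 min C had 2331 FPKM.

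The promoter windows of 3 members are shown first because these are the members in which a CArG box, the motif bound by serum response factor, was found. RefSeq (GRCm38.p6) gave the 250 bases before its own annotated start for 7 of the 8 members, 11 windows in all, and each is printed 5′ to 3′ on the strand of its gene. Capitals mark the CArG box and, in Fhl2, also a MEF2 motif nearer the start.
Fhl1, chrX:56779433-56779682, plus strand: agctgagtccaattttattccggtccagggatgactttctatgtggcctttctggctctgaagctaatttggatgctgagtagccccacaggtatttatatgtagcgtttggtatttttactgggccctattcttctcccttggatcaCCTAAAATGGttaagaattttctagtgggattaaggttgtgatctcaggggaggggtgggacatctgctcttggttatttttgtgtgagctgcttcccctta
Fhl2, chr1:43196762-43197011, minus strand: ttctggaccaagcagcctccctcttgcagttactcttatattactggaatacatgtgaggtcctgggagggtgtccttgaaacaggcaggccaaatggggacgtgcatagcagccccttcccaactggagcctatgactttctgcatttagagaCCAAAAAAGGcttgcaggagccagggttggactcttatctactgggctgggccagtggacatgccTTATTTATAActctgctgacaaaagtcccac
Lmcd1, chr6:112273508-112273757, plus strand: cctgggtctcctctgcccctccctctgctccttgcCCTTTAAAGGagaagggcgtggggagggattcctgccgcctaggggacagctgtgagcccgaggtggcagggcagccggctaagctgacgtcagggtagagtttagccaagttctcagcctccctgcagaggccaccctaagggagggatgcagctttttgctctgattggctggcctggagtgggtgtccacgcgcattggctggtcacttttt
A CArG box stood in 4 of the 11 windows, which belong to 3 genes, as Fhl2 has a second start with one at bases 31 to 22 before it. Its place was bases 102 to 93 before the start in Fhl1, 96 to 87 in the Fhl2 window shown and 215 to 206 in Lmcd1. A GENCODE transcript of the same gene begins exactly at the RefSeq start of 6 of the 11 windows, the Lmcd1 window and both Fhl2 windows among them. For 5 it does not. In 3 of these, the Fhl1 window shown and both Csrp3 windows, the bases after the RefSeq start were not found in the first 400 bases of a GENCODE transcript of that gene. The other Fhl1 window, at whose start a GENCODE transcript does begin, held none of the motifs searched. Over all 32851 RefSeq windows of this length in mouse, 1.47% held a CArG box. The MEF2 motif of Fhl2 lay at bases 31 to 22, and 2.92% of all windows held one. The Pdlim3 window held the MCAT motif CATTCC of TEAD factors at bases 11 to 6 and, on the opposite strand, at bases 201 to 196, where 12.6% of all windows held it. The AP-1 motif TGANTCA was in 0 of the 11 windows and in 6.75% of all windows. Both strands were searched, no matches of different motifs overlapped, and a match of letters is a description only.

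Lmcd1 rose and Fhl2 fell after 4 h of longitudinal stretch, and these were the 2 members called in that comparison. Lmcd1 was 5.39-fold higher than in control cells and Fhl2 was 0.737-fold of its control level. Csrp3, Fhl1, Pdlim3 and Csrp1 had positive log2 fold changes of 1.61, 1.22, 0.71 and 0.47 that did not pass the test. Csrp2 and Pdlim7, at 0.15 and 0.06, were nearest to zero. Among all genes tested 20.7% were called in this comparison, so 2 of 8 members is near the background. That share moved between 6.51% (without control B) and 26.8% (without transverse 30 min B) when 1 library was left out.

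Lmcd1 (chromosome 6, 112223752 to 112280417, mm9) encodes a LIM and cysteine-rich protein that acts as a transcriptional cofactor and restrains GATA factors. Its level was 50.2, 30.6 and 129 FPKM in the longitudinal 4 h devices A, B and C, against 13.5, 7.33 and 10.2 FPKM in control devices. Every longitudinal 4 h library was above every control library. The log2 fold change was 2.43 ± 0.76 (SE, adjusted p = 0.0436), with means of 70.1 ± 52.2 FPKM after longitudinal 4 h and 10.3 ± 3.08 FPKM in control (SD, n = 3 each). In bulk RNA a change in the share of a cell type and a change in RNA per cell cannot be told apart.

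The call on Lmcd1 lay near the threshold, and its sign was positive in every alternative run. Without the 3 libraries that stood apart it was 1.87 ± 0.38 (adjusted p = 0.0161). Leaving out 1 library at a time gave log2 fold changes of 1.87 to 2.89 and adjusted p-values of 0.0101 to 0.153, and the call held in 6 of the 15 cases. It was lost without longitudinal 4 h A or C (adjusted p = 0.0805 and 0.153), longitudinal 30 min A (0.0559), transverse 4 h A, B or C (0.0582, 0.0535 and 0.0523), or control A, B or C (0.0590, 0.134 and 0.101).

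In the other stretch groups the devices of Lmcd1 scattered widely. It had 17.2, 9.87 and 32.9 FPKM after longitudinal 30 min (devices A, B and C). After transverse 4 h it had 14.3, 22.1 and 9.96 FPKM. After transverse 30 min it had 8.57, 57.6 and 6.52 FPKM, so device B was at 7.64 times the mean of its 2 companions. Each of these groups overlapped the control range, with log2 fold changes of 0.77 ± 0.76 (adjusted p = 0.716), 0.51 ± 0.76 (0.864) and 0.55 ± 0.76 (1) by limma. The value after transverse 30 min was -0.38 ± 0.38 without the 3 libraries, a turn of sign.

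**Figure D1:**
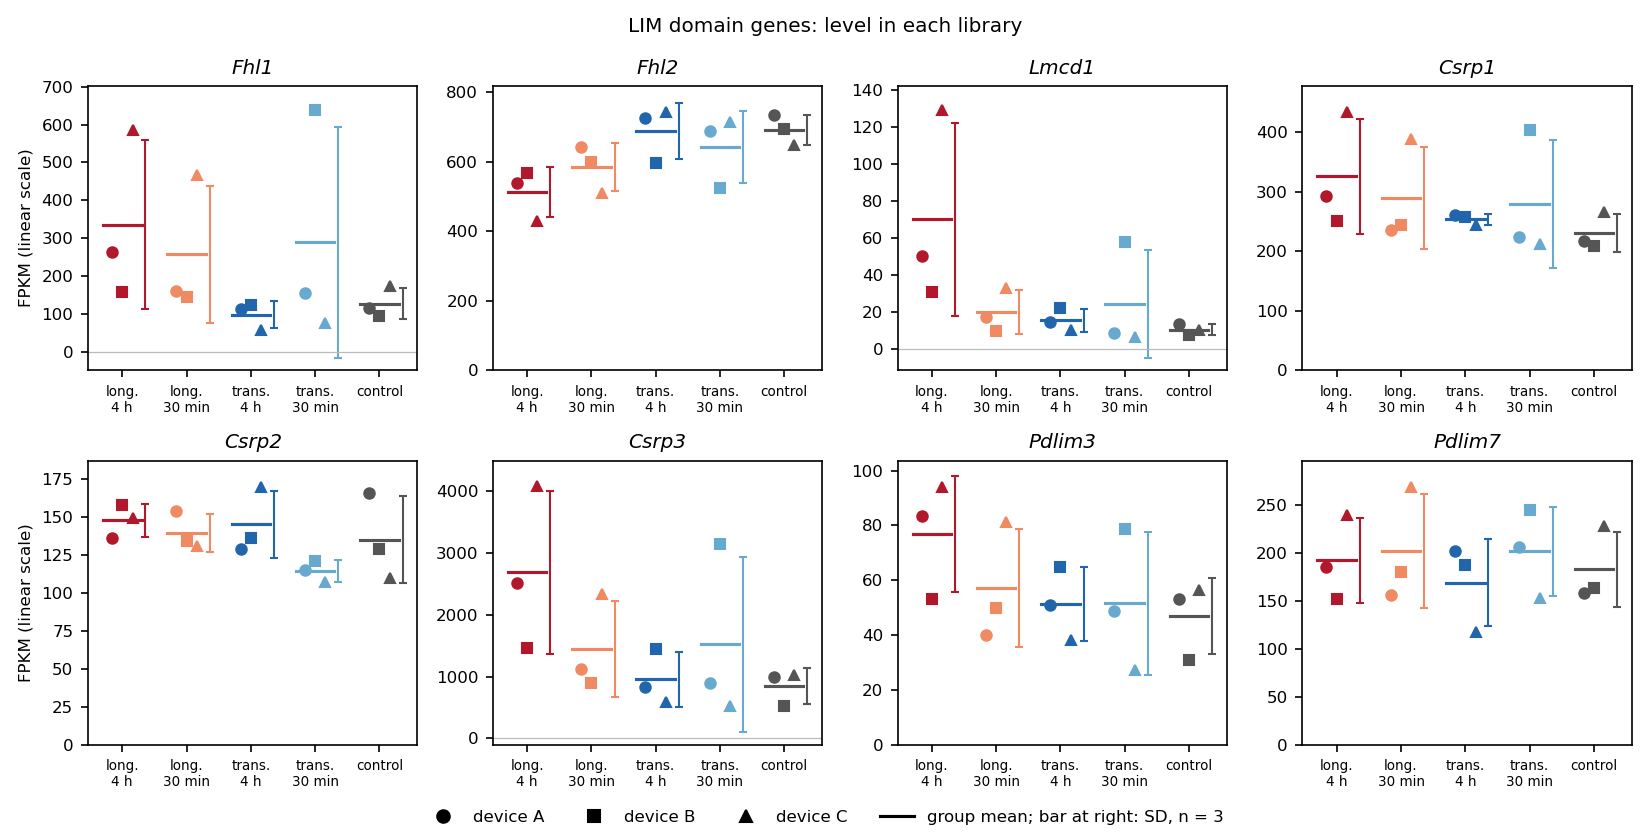
Level in FPKM (linear axis that includes 0) of the 8 LIM domain genes in each of the 15 libraries, by group; symbols are devices A, B and C, horizontal lines are group means and bars are the SD (n = 3). Lmcd1 reached 129 FPKM and Csrp3 4086 FPKM in device C of longitudinal 4 h, Fhl1 638 FPKM in device B of transverse 30 min, and Fhl2 was at its lowest, 430 FPKM, in longitudinal 4 h C.

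Fhl1 and Fhl2 belong to the FHL family, proteins made almost wholly of LIM domains; both bind the elastic I-band part of titin, and Fhl2 is also a nuclear cofactor that can restrain serum response factor. Fhl2 (chromosome 1, 43179919 to 43220806) was abundant in every library, between 430 and 744 FPKM. It had 539, 568 and 430 FPKM in longitudinal 4 h devices A, B and C, against 734, 694 and 648 FPKM in control devices, with no overlap. The log2 fold change was -0.44 ± 0.14 (adjusted p = 0.0444), with means of 513 ± 72.9 FPKM after longitudinal 4 h and 692 ± 42.9 FPKM in control (SD, n = 3 each).

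The fall of Fhl2 was smaller in size than the rise of Lmcd1, and its call also lay near the threshold. Without the 3 libraries that stood apart the log2 fold change was -0.32 ± 0.10 (adjusted p = 0.0488). Over the 15 single leave-outs it lay between -0.52 and -0.32, with adjusted p-values of 0.0205 to 0.170, and the call held in 6. It was lost without longitudinal 4 h A or C (adjusted p = 0.0705 and 0.170), longitudinal 30 min B (0.0553), transverse 4 h A or C (0.0561 and 0.0513), transverse 30 min A (0.0532), or control A, B or C (0.10, 0.112 and 0.0757).

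After longitudinal 30 min Fhl2 had 644, 600 and 510 FPKM, again each below every control library, but the log2 fold change of -0.25 ± 0.14 did not pass (adjusted p = 0.598). After transverse 4 h it had 726, 596 and 744 FPKM, a difference of -0.01 ± 0.14 from control (adjusted p = 0.985). After transverse 30 min it had 689, 524 and 716 FPKM, a difference of -0.12 ± 0.14 (adjusted p = 1). Both transverse groups overlapped the control range.

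Fhl1 (chromosome X, 53984964 to 54046523) was far less even than Fhl2. It had 264, 157 and 585 FPKM in longitudinal 4 h devices A, B and C, against 115, 93.9 and 173 FPKM in control devices. The middle longitudinal value was above all controls, but device B lay within their range. The log2 fold change of 1.22 ± 0.75 was not called (adjusted p = 0.252), and was 0.72 ± 0.43 without the 3 libraries (adjusted p = 0.274).

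The single highest Fhl1 value stood in another group. Fhl1 had 160, 146 and 467 FPKM after longitudinal 30 min and 154, 638 and 75.6 FPKM after transverse 30 min (devices A, B and C). After transverse 4 h it had 114, 123 and 56.6 FPKM, the lowest group mean of the 5 (98.0 ± 36.1 FPKM, SD, n = 3). Against control the log2 fold changes were 0.84 ± 0.75 (adjusted p = 0.690), 0.66 ± 0.75 (1) and -0.41 ± 0.75 (0.891) by limma, in the order longitudinal 30 min, transverse 30 min and transverse 4 h. None was called.

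Csrp3, Csrp1 and Csrp2 encode the cysteine and glycine-rich proteins; Csrp3 is muscle LIM protein of striated muscle Z-discs, while Csrp1 and Csrp2 are best known from smooth muscle and bind the actin cytoskeleton. Csrp3 (chromosome 7, 56085768 to 56103421) had the highest level per length of the 8 members in 12 of 15 libraries and ranged from 517 to 4086 FPKM. It had 2515, 1461 and 4086 FPKM in longitudinal 4 h devices A, B and C, against 993, 517 and 1030 FPKM in control devices. All longitudinal 4 h values exceeded all control values, with means of 2687 ± 1321 FPKM after longitudinal 4 h and 847 ± 286 FPKM in control (SD, n = 3 each).

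The log2 fold change of Csrp3 was 1.61 ± 0.64, or 3.05-fold, and was not called (adjusted p = 0.0921). It was 1.24 ± 0.46 without the 3 libraries (adjusted p = 0.0937), and it was called when transverse 30 min B alone was left out (adjusted p = 0.0367). That library is in neither group compared, and the log2 fold change stayed at 1.61 without it. In the other groups Csrp3 had 1124, 888 and 2331 FPKM after longitudinal 30 min, 833, 1450 and 582 FPKM after transverse 4 h, and 891, 3148 and 518 FPKM after transverse 30 min. Each of these ranges overlapped the control range.

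Csrp1 (chromosome 1, 137625774 to 137648806) varied over a narrower range, from 208 to 434 FPKM. It had 293, 250 and 434 FPKM in longitudinal 4 h devices A, B and C, against 217, 208 and 266 FPKM in control devices. The groups overlapped, and the log2 fold change of 0.47 ± 0.26 did not pass (adjusted p = 0.210). After transverse 4 h its devices lay closest together, at 260, 257 and 243 FPKM. After longitudinal 30 min Csrp1 had 235, 244 and 388 FPKM and after transverse 30 min 223, 403 and 212 FPKM, where the library that stood apart was again the highest.

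Csrp2 (chromosome 10, 110357232 to 110376570) was the most even member, with its highest library 1.59 times its lowest. It had 136, 158 and 149 FPKM in longitudinal 4 h devices A, B and C, against 166, 129 and 110 FPKM in control devices, and the groups overlapped. It was lowest after transverse 30 min, with 115, 121 and 107 FPKM. Those values lay below all 3 of longitudinal 30 min (154, 134 and 131 FPKM) and all 3 of transverse 4 h (129, 136 and 170 FPKM), but neither difference passed: longitudinal over transverse at 30 min was 0.29 ± 0.14 (adjusted p = 0.804), and transverse 4 h over transverse 30 min was 0.33 ± 0.14 (adjusted p = 0.362).

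Pdlim3 and Pdlim7 carry a PDZ domain beside their LIM domains and bind alpha-actinin or tropomyosin at actin filaments; Pdlim3 is the actinin-associated LIM protein of the Z-disc. Pdlim3 (chromosome 8, 46970839 to 47004900) had 83.3, 53.3 and 94.2 FPKM in longitudinal 4 h devices A, B and C, against 53.1, 30.9 and 56.6 FPKM in control devices. Device B of longitudinal 4 h fell within the control range, and the log2 fold change of 0.71 ± 0.39 was not called (adjusted p = 0.203). It had 40.1, 49.9 and 81.3 FPKM after longitudinal 30 min, 51.0, 64.9 and 38.2 FPKM after transverse 4 h, and 48.7, 78.8 and 27.1 FPKM after transverse 30 min. These groups overlapped control, and the last of them held both a high and the lowest library of the gene.

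Pdlim7 (chromosome 13, 55598848 to 55614800) had 185, 152 and 239 FPKM in longitudinal 4 h devices A, B and C, against 158, 163 and 228 FPKM in control devices. Its groups overlapped and its log2 fold change was 0.06 ± 0.27 (adjusted p = 0.888). Without the 3 libraries the value was -0.11 ± 0.25. Pdlim7 had 156, 180 and 269 FPKM after longitudinal 30 min, 202, 187 and 117 FPKM after transverse 4 h, and 206, 245 and 153 FPKM after transverse 30 min. No group stood clear of another, and the group means lay between 169 and 202 FPKM.

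The order of group means was read for each member. Lmcd1, Csrp1, Csrp2, Csrp3, Pdlim3 and Fhl1 had their highest mean after longitudinal 4 h, and Fhl2 had its lowest there. Every neighbouring pair of groups in these orders, 32 pairs over the 8 members, overlapped in range. The same count was not made over all genes, so it describes these orders and sets the members apart from no other genes.

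**Figure D2:**
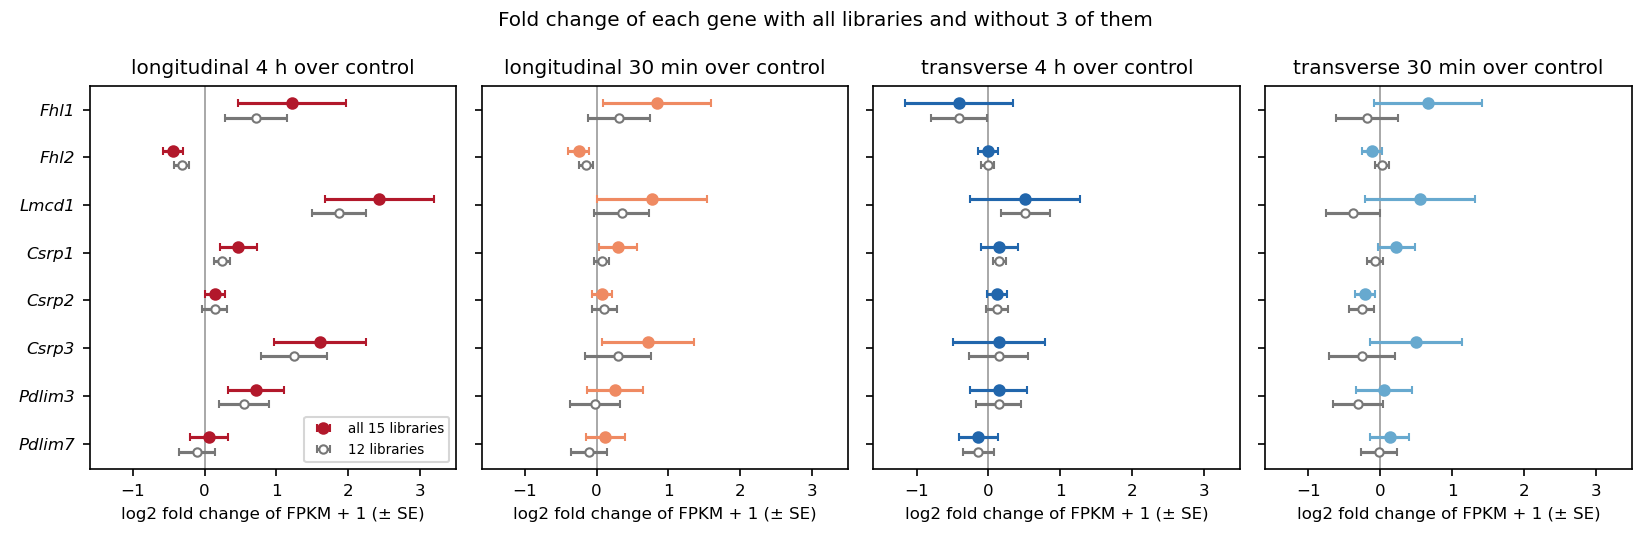
Log2 fold change of FPKM + 1 over control for each member (points, bars are SE), from left to right longitudinal 4 h, longitudinal 30 min, transverse 4 h and transverse 30 min; filled points use all 15 libraries and open points leave out the 3 that stood apart. Lmcd1 lies at 2.43 and 1.87 in the left panel, while in the right panel its 2 values, 0.55 and -0.38, fall on both sides of zero.

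No member was called by limma in the other comparisons with control. After longitudinal 30 min, 0 of 8 were called and 0 had an unadjusted p under 0.05. Of all genes 0.446% were called and 8.93% had such a p. After transverse 4 h the counts were also 0 and 0, beside 0.0578% and 10.6% of all genes. After transverse 30 min they were 0 and 0 again, beside 0.314% and 4.07% of all genes.

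The signs after transverse 30 min depended on device B. With all libraries 6 of 8 members had a positive log2 fold change, with a median of 0.18 beside -0.01 for all genes tested. Without the 3 libraries 1 of 8 was positive and the median was -0.22. After longitudinal 4 h the medians were 0.59 with all libraries, beside -0.01 for all genes, and 0.39 without the 3.

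Counted by range alone, 3 of 8 members (Lmcd1, Csrp3 and Fhl2) did not overlap control after longitudinal 4 h, where 42.4% of all genes did not. After longitudinal 30 min the count was 1 (Fhl2), where 17.7% of all genes did not overlap. It was 0 after transverse 4 h and 0 after transverse 30 min, where 20.5% and 7.60% of all genes did not overlap. The shares of the members were thus near or below those of all genes.

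The authors' deposited table gave its own fold changes and q-values, by a test not given in the sources used. There, in the authors' deposited table, the count of members with q under 0.05 was 4 after longitudinal 4 h: Fhl1 (log2 fold change 1.4), Lmcd1 (2.77), Csrp3 (1.68) and Pdlim3 (0.71), where 5.82% of its genes did. Fhl2 had -0.43 in the authors' deposited table with q = 0.469. In the authors' deposited table Lmcd1 also had q under 0.05 after longitudinal 30 min (0.96) and after transverse 30 min (1.24, q = 0.0127), where 1.23% and 0.388% of its genes did. After transverse 4 h 0 members did in the authors' deposited table, where 0.256% of its genes did. The Lmcd1 value after transverse 30 min comes from the group in which device B had 57.6 FPKM and the other 2 had 8.57 and 6.52 FPKM.

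The axes were compared directly at each duration. At 4 h, longitudinal over transverse, Lmcd1 differed by 1.92 ± 0.76 (adjusted p = 0.158), Fhl1 by 1.63 ± 0.75 (0.196), Csrp3 by 1.47 ± 0.64 (0.182) and Fhl2 by -0.43 ± 0.14 (0.121) by limma. For these 4 of 8 members the longitudinal and transverse libraries did not overlap, where 35.5% of all genes did not, yet none was called. Of the 8 members 3 had an unadjusted p under 0.05, where 25.7% of all genes did, and 0.0165% of all genes were called in that comparison. At 30 min 1 member, Csrp2, did not overlap between the axes, where 9.29% of all genes did not. There 0 members were called, where 0.0248% of all genes were, and 0 had an unadjusted p under 0.05, where 5.49% of all genes did.

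Duration was compared within each axis. Longitudinal 4 h over longitudinal 30 min gave 1.66 ± 0.76 for Lmcd1 (adjusted p = 0.207) and 0.90 ± 0.64 for Csrp3 (adjusted p = 0.423). Every member overlapped between these groups, where 28.7% of all genes did not overlap. No member was called there, where 4.98% of all genes were called, and 1 had an unadjusted p under 0.05, where 24.2% of all genes did. Transverse 4 h over transverse 30 min called 0 members, beside 0.338% of all genes, and 1 had an unadjusted p under 0.05, where 12.4% of all genes did. There 1 member (Csrp2) did not overlap, where 17.5% of all genes did not. The interaction of axis and duration called 0 members, beside 0.0248% of all genes. In it 0 members had an unadjusted p under 0.05, where 5.13% of all genes did. Its value for Lmcd1 was 1.70 ± 1.07 (adjusted p = 0.833).

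The spread between devices was itself large in these genes. The pooled SD within groups, on the log2(FPKM + 1) scale, was 0.98 for Lmcd1, 0.98 for Fhl1 and 0.85 for Csrp3, where the median of all genes tested was 0.11. These ranked 84, 85 and 106 among 12114 genes from the most spread. Pdlim3 followed at 0.52, Pdlim7 at 0.36 and Csrp1 at 0.35, while Fhl2 (0.19) and Csrp2 (0.18) were the most even. From the lowest to the highest library Lmcd1 spanned 19.8-fold, Fhl1 11.3-fold and Csrp3 7.91-fold.

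The 3 libraries that stood apart carried much of that spread. Csrp3 was 2.06-fold, 2.32-fold and 4.47-fold the mean of its 2 companion devices in longitudinal 4 h C, longitudinal 30 min C and transverse 30 min B. For Fhl1 the ratios were 2.78, 3.05 and 5.56, and for Fhl2 they were 0.777, 0.820 and 0.747. Csrp2 stayed near its companions, with ratios of 1.01, 0.905 and 1.09. Over all genes tested these libraries were the highest of their group for 37.7%, 39.7% and 40.0% and the lowest for 39.7%, 35.2% and 41.1%.

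**Figure D3:**
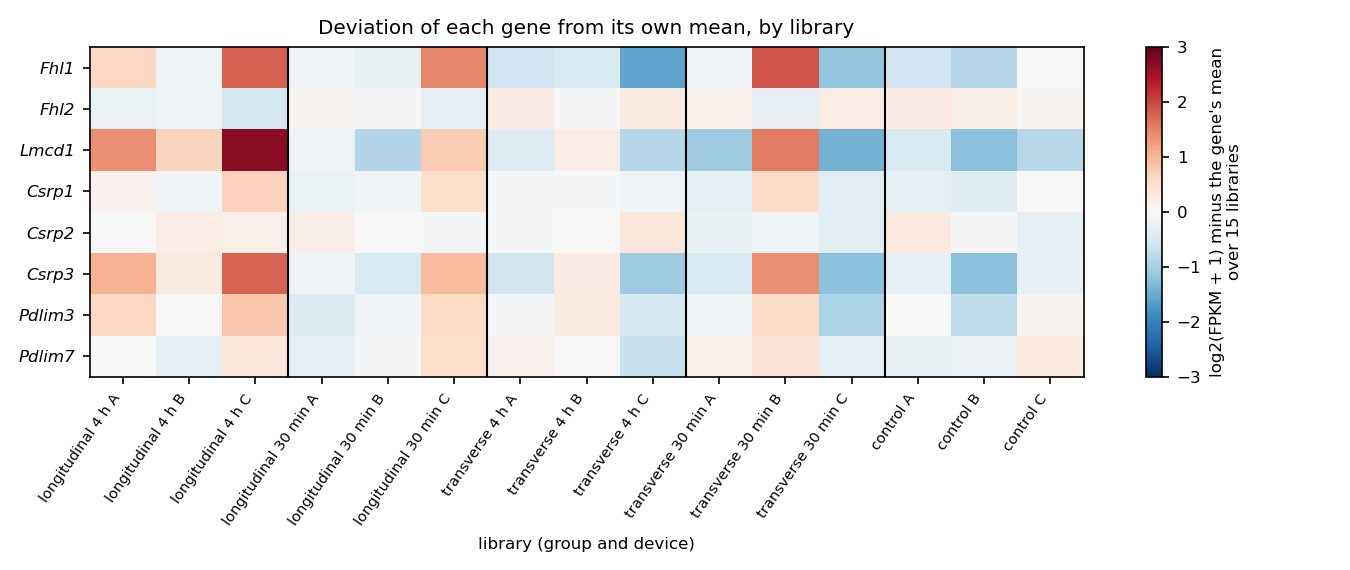
Deviation of log2(FPKM + 1) from the mean of each gene over 15 libraries (colour, red above and blue below), with members in rows and libraries in columns, grouped from longitudinal 4 h on the left to control on the right. The columns longitudinal 4 h C, longitudinal 30 min C and transverse 30 min B are red for Fhl1, Lmcd1, Csrp1, Csrp3, Pdlim3 and Pdlim7 and blue for Fhl2.

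Fhl1, Lmcd1, Csrp1, Csrp3 and Pdlim3 moved together from library to library. Their 10 pairs had Pearson correlations of 0.84 to 0.96 over the 15 libraries, and 0.82 to 0.96 for deviations from the group means. Without the 3 libraries the range was 0.58 to 0.92. Fhl2 ran the other way, with -0.89 against Fhl1, -0.90 against Lmcd1 and -0.92 against Csrp3. Csrp2 followed neither, with 0.12 against Csrp3 and -0.11 against Fhl1, and Pdlim7 correlated at 0.82 with Fhl1 and 0.51 with Lmcd1. With the 3 libraries left out these were 0.64 and 0.07 for Pdlim7, and Fhl2 had -0.76, -0.76 and -0.82 against Fhl1, Lmcd1 and Csrp3. The points share libraries and depth, so these correlations are descriptions.

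The genes most alike to each member were named among 8235 genes averaging at least 5 FPKM. Lmcd1 was most like Rrp12 (r = 0.991), Pik3cb (0.989) and Tgfb2 (0.988), a growth factor that ran between 7.23 and 71.7 FPKM. Fhl1 was most like the cytoskeletal genes Actn1 (0.987) and Msn (0.975) and the small heat shock gene Hspb1 (0.986), and Csrp3 like the actin-severing cofilin gene Cfl2 (0.987), Hspa1l (0.985) and Nt5c2 (0.985). Fhl2 was most like Stk39 (0.967), Atp5sl (0.961) and Il10rb (0.957). Pdlim3 was most like Sorbs2 (0.973), Ankrd23 (0.970) and Med21 (0.965), of which Sorbs2 and Ankrd23 encode Z-disc or I-band proteins.

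Csrp1, Csrp2 and Pdlim7 were read in the same way. Csrp1 was most like Uba1 (0.971), Tpd52 (0.967) and Cdc42bpb (0.963), and these were 0.81 each without the 3 libraries. Csrp2 was most like Sln (0.895), Atpif1 (0.872) and Wipf1 (0.844). Pdlim7 was most like Iah1 (0.950), Fxyd1 (0.948) and Hira (0.947).

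Other LIM domain genes were read from a list of 51, of which 43 were in the table and 40 were tested. After longitudinal 4 h, 2 rose, 1 fell and 37 were not called, where 20.7% of all genes were called, with a median of 0.15 beside -0.01 for all genes. Both that rose were of the zyxin and paxillin families. Tes, an adhesion protein that binds zyxin, had 3.93, 3.66 and 4.25 FPKM in longitudinal 4 h devices and 3.21, 2.56 and 2.65 FPKM in control devices (0.38 ± 0.08, adjusted p = 0.00964). Lims1, the PINCH adaptor of integrin-linked kinase, had 50.7, 52.6 and 80.4 FPKM in longitudinal 4 h devices, against 41.6, 37.5 and 38.1 FPKM in control devices (0.61 ± 0.15, adjusted p = 0.0156).

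The 1 that fell was a PDZ and LIM gene. Lmo7, a junction protein with a PDZ and a LIM domain, had 54.4, 56.6 and 37.1 FPKM in longitudinal 4 h devices, against 73.0, 64.4 and 66.8 FPKM in control devices (-0.48 ± 0.13, adjusted p = 0.0286). The Lmo7 call was lost without the 3 libraries (adjusted p = 0.0717). Of the 40 tested, 4 were then called higher and 0 lower, where 17.1% of all genes were called. In each of the other 3 comparisons with control 0 of the 40 were called. The shares of all genes called there were 0.446% (longitudinal 30 min), 0.0578% (transverse 4 h) and 0.314% (transverse 30 min).

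Fhl3, of the same family as Fhl1 and Fhl2, averaged 20.1 ± 7.54 FPKM after longitudinal 4 h and 11.2 ± 0.508 FPKM in control (0.73 ± 0.25, adjusted p = 0.0548). Nrap, a nebulin-related LIM protein of forming myofibrils, averaged 208 ± 94.0 FPKM after longitudinal 4 h and 64.8 ± 23.6 FPKM in control (1.62 ± 0.55, adjusted p = 0.0551). Neither was called.

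Partners of the members at titin, the Z-disc and the costamere were 25 listed genes, 24 of them tested. After longitudinal 4 h, 3 rose and 0 fell, where 20.7% of all genes were called, with a median of 0.35 beside -0.01 for all genes and 0.17 without the 3 libraries. Vcl, which encodes vinculin, had 99.8, 92.9 and 126 FPKM in longitudinal 4 h devices and 65.9, 43.8 and 53.6 FPKM in control devices (0.96 ± 0.25, adjusted p = 0.0217). Nexn, an actin-binding Z-disc protein, had 257, 212 and 217 FPKM in longitudinal 4 h devices, against 176, 131 and 160 FPKM in control devices (0.56 ± 0.14, adjusted p = 0.0163). Bag3, a cochaperone at the Z-disc, rose by 0.41 ± 0.13 (adjusted p = 0.0428), and its call was lost without the 3 libraries (adjusted p = 0.143).

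**Figure D4:**
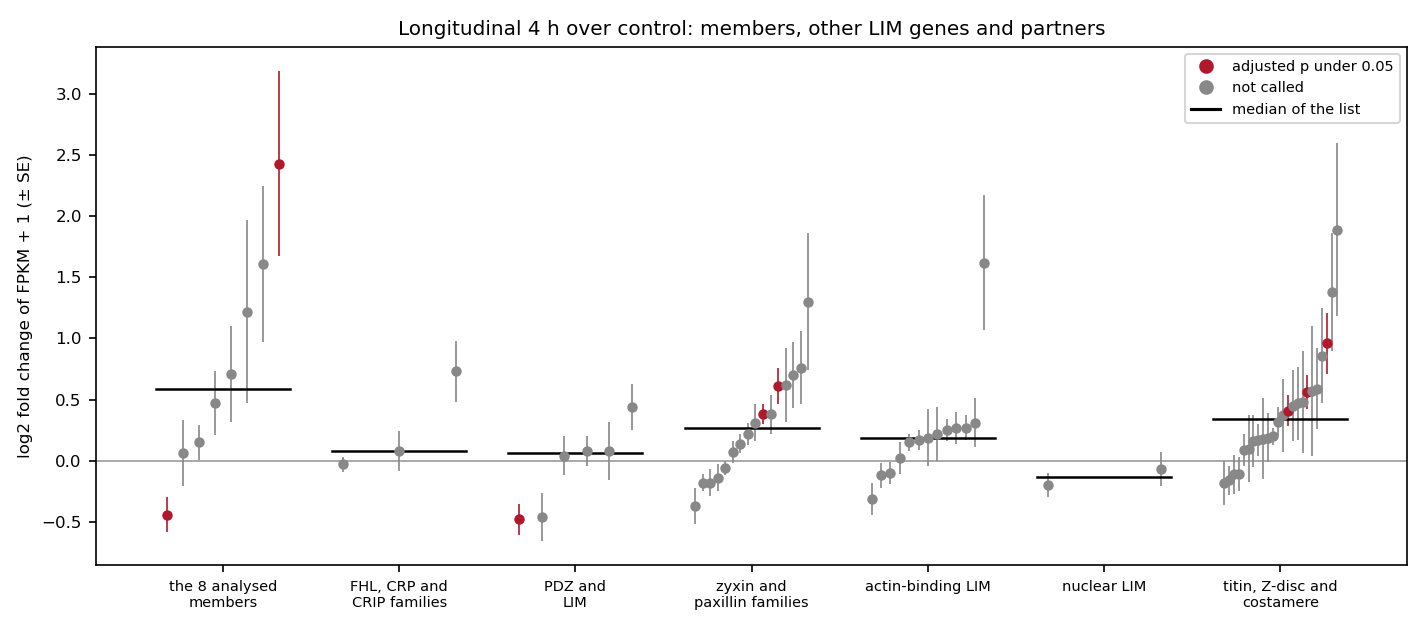
Log2 fold change of FPKM + 1 for longitudinal 4 h over control (points, bars are SE) of the members, 5 lists of other LIM domain genes and the partner list; red points have an adjusted p under 0.05 and black lines are list medians. The members run from -0.44 (Fhl2) to 2.43 (Lmcd1), and the partner list has 3 red points, all above zero.

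Marker genes of the cells in the cultures were read beside these results. Of 9 cardiomyocyte markers 8 were in the table, and they summed to 12224 to 15021 FPKM after longitudinal 4 h, 12890 to 16520 after longitudinal 30 min, 13268 to 13705 after transverse 4 h, 12018 to 16247 after transverse 30 min and 11914 to 15161 in control. All 8 smooth muscle markers were in the table, and they summed to 938 to 1559 FPKM after longitudinal 4 h, 812 to 1616 after longitudinal 30 min, 508 to 852 after transverse 4 h, 443 to 1298 after transverse 30 min and 510 to 840 in control. The 3 libraries that stood apart (longitudinal 4 h C, longitudinal 30 min C and transverse 30 min B) were the highest of their groups in both sums, at 15021, 16520 and 16247 FPKM for cardiomyocyte markers and 1559, 1616 and 1298 FPKM for smooth muscle markers. After longitudinal 4 h, where 20.7% of all genes were called, 1 of the 8 smooth muscle markers was called. It was Smtn (0.35 ± 0.11, adjusted p = 0.0417), and the list median was 0.43. Of the 8, 7 had a positive log2 fold change, while Myocd went the other way (-0.49 ± 0.16, adjusted p = 0.0524, not called). The Smtn call was lost without the 3 libraries (adjusted p = 0.131), where the list median was 0.20. Fibroblast markers (9 of 9 in the table) summed to 2040 to 2733 FPKM over all libraries. Their sum was the lowest of its group in longitudinal 4 h C (2357 FPKM) and transverse 30 min B (2040 FPKM). In longitudinal 30 min C it was the middle value (2275 FPKM). In each comparison with control 0 of the fibroblast markers were called, where 0.0578% (transverse 4 h) to 20.7% (longitudinal 4 h) of all genes were. Macrophage and leukocyte markers (8 of 8) summed to 353 to 531 FPKM, also with 0 called. Their sum was the lowest of its group in longitudinal 30 min C (374 FPKM) and transverse 30 min B (368 FPKM), and the middle value in longitudinal 4 h C (508 FPKM). Endothelial markers (8 of 8) summed to 22.1 to 47.5 FPKM. Their sum was the highest of its group in longitudinal 4 h C (38.7 FPKM) and longitudinal 30 min C (33.6 FPKM), and the middle value in transverse 30 min B (29.0 FPKM). After longitudinal 4 h Flt1 was called higher (0.62 ± 0.15, adjusted p = 0.0159) and Tek lower (-0.42 ± 0.13, adjusted p = 0.0438). The Tek call was lost without the 3 libraries (adjusted p = 0.0921). No marker was at 0 in all libraries. Their part in the results was not tested.

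Reads of the members were checked for sharing with other genes, since genes with near-identical copies can split reads. In reference transcripts, 0 stretches of 50 bases of Fhl1, Fhl2, Lmcd1, Csrp1, Csrp2 and Csrp3 recurred in another gene. Pdlim3 shared 1 such stretch and Pdlim7 shared 0.37% of its stretches, with a microRNA entry. No table entry overlapped a member in position.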

How the data were processed

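Poly(A) RNA of 15 libraries was sequenced with a kit that does not mark strand, per the labels' protocols. The submitters' processing notes name the tools FastQC, TopHat 1.4.1 and Cufflinks 2.0.2 and the build mm9, without roles. The authors deposited 1 table with an FPKM value per gene and library and, per the file headers, for each stretch group against control, a p-value, a q-value and a log2 fold change. It held 0 value columns of unmapped samples. Starts in the table were raised by 1 to count from 1.

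From the FPKM values, limma 3.58.1 in R 4.3.3 was fitted to log2(FPKM + 1), using its robust and trend settings. The filter was 1 FPKM in 3 libraries (12114 of 13657). All 5 groups entered 1 fit with 10 residual degrees of freedom and 9 comparisons, and p-values were two-sided. A pseudocount of 1 understates changes of low genes. The fit was tested on simulated data. Without strand, reads of overlapping genes cannot be told apart. The number of devices limits precision.

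The members, gene lists and tests were chosen with earlier results of these data known; 1 listed gene is not reported here. Genes named are the members, up to 4 genes of smallest p per list and comparison with control, and the 3 genes of highest Pearson r with each member. Alternatives changed the pseudocount (0.1), the filter, the scaling, the groups fitted, the replicate block, the trend and robust options, and the libraries kept. Promoter sequence is RefSeq's, in GRCm38.p6, and is not mixed with mm9 positions.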

Additional observations from a re-analysis of the deposited data

Results flagged for a closer look

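Fhl1 differed between the axes at 4 h in a way that drew attention: all 3 longitudinal 4 h libraries lay above the control mean of 127 FPKM, with a mean of 335 FPKM, and all 3 transverse 4 h libraries lay below it, with a mean of 98.0 FPKM. Control devices A, B and C were at 115, 93.9 and 173 FPKM, and both stretch groups overlapped their range. The opposition of signs about the control mean was looked for in the members only and was not tested as such. The direct limma comparison, longitudinal over transverse at 4 h, gave 1.63 ± 0.75 (adjusted p = 0.196), and 1.13 without the 3 libraries that stood apart (adjusted p = 0.198).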

How the results depend on the processing

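Over 1584 values (8 members, 9 comparisons, 22 alternatives), 1488 kept their direction and their side of the threshold, 75 changed sign while uncalled both ways, 20 lost a call, 1 gained one and 0 called values reversed. The count of members called after longitudinal 4 h, 2 with all libraries, was 0 with the replicate block and 0 to 3 over single leave-outs. With that block Lmcd1 was at 2.43 (adjusted p = 0.0745) and Fhl2 at -0.44 (0.0562); it changed no other call on a member. No clear pairing by device letter was seen. Deviations from the group means correlated at -0.50 to 0.51 in 30 pairs of the same letter (median -0.00). In 60 pairs of different letters the range was -0.48 to 0.58 (median 0.01). Of 15 libraries 7 correlated best with their own letter. As the labels do not name isolations, these correlations cannot decide whether devices of one letter share one. Over all genes, 2503 were called in that comparison, 1661 with the block and 789 to 3249 over leave-outs, where omitting control B gave 789, omitting control C 1034, and omitting device C or A of longitudinal 4 h gave 1023 or 1429. Longitudinal 4 h over longitudinal 30 min called 603, and 45 without the 3 libraries, 20 with only the groups compared and 207 with the block. Longitudinal over transverse at 4 h called 2, and 173 without transverse 30 min B. The causes were not tested. Scaling libraries to one median moved no median by more than 0.025. Low depth could not be expressed as counts, and 3 devices a group limit what can be called.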

Other observations

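The partner genes at titin, the Z-disc and the costamere were also read between the axes. Longitudinal over transverse at 4 h gave positive log2 fold changes for 23 of the 24 tested, with a median of 0.28 beside -0.01 for all genes. By limma 0 of the 24 were called, where 0.0165% of all genes were. Without the 3 libraries that stood apart the median was 0.14. Transverse 4 h against control gave 11 of 24 positive and a median of -0.02. For longitudinal over transverse at 4 h, smooth muscle markers had a median of 0.20 (6 of 8 positive) and cardiomyocyte markers one of 0.06. Without the 3 libraries these medians were 0.14 and -0.06, the second a turn of sign. Of either list 0 were called, where 0.0165% of all genes were.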
